A study of Rattus norvegicus with 6 samples.

Results

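Chemokines and their receptors were examined in the mesenterial fat of newborn rats as 58 probe sets that the array annotation assigns to exactly 1 gene whose symbol begins with Ccl, Cxcl, Ccr, Cxcr, Cx3cl, Cx3cr, Xcl, Xcr or Ackr and a digit. These probe sets represent 45 genes, of 14217 genes named by a probe set with 1 gene, and were taken from 31042 non-control probe sets on the array. Both groups were wildtype Sprague-Dawley newborns, an outbred stock, and differed in the feed of their dams. In the deficient group (3 arrays) the dams' feed held 0 IU of vitamin D per kg, and in the adequate group (3 arrays) it held 1000 IU per kg. Each array carried biotin-labelled material from total RNA of mesenterial adipose tissue, the fat along the folds that hold the gut's vessels. Litter and sex are not labelled. Whether each array is its own newborn is not stated either, and p-values cover only the spread between these samples, which may be technical.

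Chemokines are small secreted proteins, named after the spacing of their first cysteines, that bind receptors with 7 membrane passes and guide the migration of cells. A subset is made without inflammation by stromal and endothelial cells and places lymphocytes, precursor cells and vessels in developing tissue. Others are induced by cytokines and microbial products and call in neutrophils, monocytes, eosinophils or T cells. Atypical receptors, named Ackr, bind chemokines without coupling to G proteins and remove or present them. Mesenteric fat lies beside lymph nodes and lymphatic vessels and can hold clusters of lymphocytes and macrophages, and in mice stromal cells of such clusters make Cxcl13.

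The arrays came with signals and no detection calls, so a background level was set on each array from 40 probe sets named to 1 olfactory, vomeronasal or taste receptor, genes taken as silent in fat. The level was the 95th percentile of their signals, which lay between 52.2 and 85.1 intensity units on the deficient arrays and between 44.2 and 57.1 on the adequate arrays. Because it was higher on deficient arrays 1 and 2 than on the other 4, the number of arrays above it is not comparable between the groups for dim probe sets. On all 6 arrays, 23 of the 58 probe sets (19 genes) were above this level, 17 were above it on some arrays only, and 18 on none. The number above it on every array was 14 when the 99th percentile was used. For 10 of the 45 genes no probe set was above background on any array. A further 12 rat genes in RefSeq fit the naming rule and were not analysed here.

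Array quality differed within the deficient group. Spiked bacterial control transcripts gave 7.19, 10.1 and 0.960 times the adequate mean on deficient arrays 1 to 3, in that order. The ratio of beta-actin signal at its 3' end to that at its 5' end, a measure of how intact the labelled RNA was, reached 7.56 and 6.80 for the first pair and 2.35 for the other deficient array, against 2.39 to 4.81 in the adequate group. For the 12 members with the smallest unadjusted p, the change is therefore given with all 6 arrays, with deficient array 3 alone and without it. Among the defining markers of fat cells, Plin1, Adipoq and Cidec were above background on no array, while Fabp4, Lpl and 4 other markers of a list of 10 were above it on all 6. In bulk tissue, fewer cells of a type and less RNA per cell cannot be told apart.

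With all 6 arrays, no chemokine or receptor differed between the maternal diets past the adjusted threshold. Of the 58 probe sets, 26 (22 genes) were bright enough to test, by a geometric mean signal over all arrays of at least 88.2. Among the 26, 0 had an adjusted p under 0.05 with limma. Among all 18625 tested probe sets 0 passed, 0%, with adjusted p-values of 0.344 or more. Members with an unadjusted p under 0.05 numbered 6, which is 23.1% of those tested, against 14.2% of all tested probe sets. Of these, 5 were lower in the deficient group, 19.2% against a background of 8.18%, and 1 was higher, 3.85% against 6.03%. The lower ones were a pair of probe sets for the receptor Cxcr4 and those for the ligands Ccl21, Ccl11 and Ccl6. The higher one was the atypical receptor Ackr3.

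Among the tested members, 18 were lower and 8 higher in the deficient group, with a median log2 change of -0.18. Over all tested probe sets 55.3% were lower and the median was -0.05. The 3 deficient arrays all lay below the 3 adequate arrays for 5 members, 19.2%, against 10.8% of all tested probe sets, and all above them for 1 member, 3.85% against 6.55%. Of the 5 lower ones, 3 were probe sets of the same gene, Cxcr4, so the share counts that gene repeatedly. Relative to the adequate mean of each probe set, the members' median was -0.30, -0.18 and -0.11 in the deficient samples and between -0.09 and 0.17 in the adequate samples. With deficient array 3 alone against the adequate arrays, Ccl21 was the only member with an unadjusted p under 0.05, 3.57% of 28 tested against 6.60% of all probe sets, and with the hybridisation controls as a covariate there were 0, against 4.23%. Without deficient array 3, 5 members passed the adjusted threshold, 19.2% against 19.4% of all tested probe sets, and 10 had an unadjusted p under 0.05, 38.5% against 35.3%. In that fit the members' shares were near those of the whole table.

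**Figure D1:**
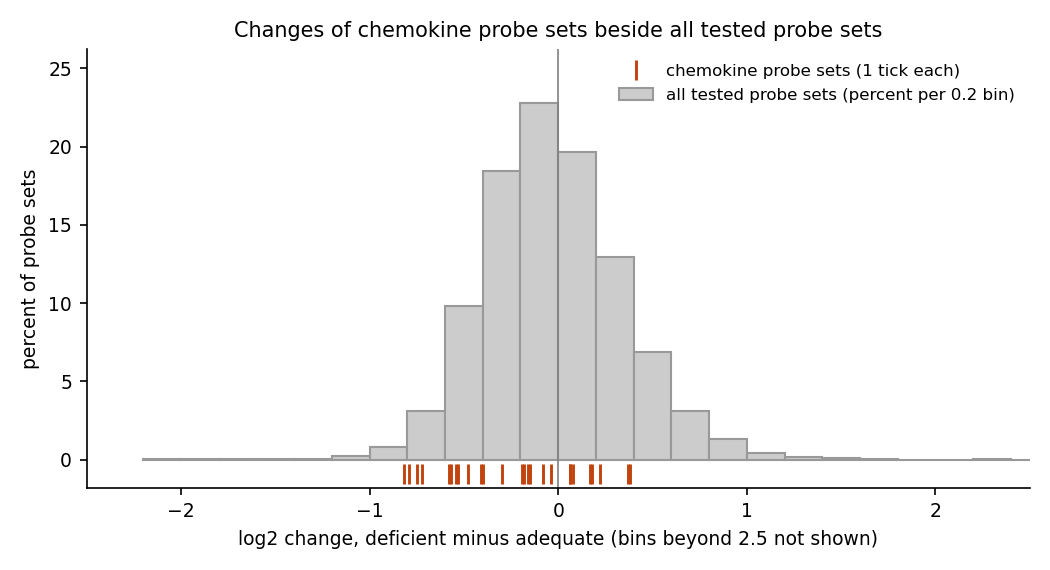
Log2 change, deficient minus adequate, of the 26 tested chemokine and receptor probe sets (ticks) below the distribution of all 18625 tested probe sets (bars, percent per bin). The ticks run from -0.82 to 0.38, within the range of the bars, and 18 of the 26 lie below 0.

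Promoter sequences were read for 6 members because the values below turn on Cxcl12, Cxcr4, Ackr3 and Ccl21, with the inflammatory ligands Cxcl10 and Cxcl2 shown beside them. Each window runs from 250 bases before to 50 bases after the gene's start, 5′ to 3′ along the gene, from RefSeq in the GRCr8 build: Cxcl12 at chr4:152060531-152060830 on the plus strand, Cxcr4 at chr13:42634239-42634538 on the minus strand, Ackr3 at chr9:98247104-98247403 on the plus strand, Ccl21 at chr5:61777466-61777765 on the minus strand, Cxcl10 at chr14:15988816-15989115 on the plus strand and Cxcl2 at chr14:17467206-17467505 on the minus strand. Capitals mark matches, on either strand, to the TATA box TATAAA, the hypoxia response element core ACGTG, the nuclear receptor half-site AGGTCA, or the kappa B consensus bound by NF-kB. In Cxcr4 the TATA box matches of both strands overlap, and in Cxcl10 and Cxcl2 those of the kappa B consensus do.
Cxcl12: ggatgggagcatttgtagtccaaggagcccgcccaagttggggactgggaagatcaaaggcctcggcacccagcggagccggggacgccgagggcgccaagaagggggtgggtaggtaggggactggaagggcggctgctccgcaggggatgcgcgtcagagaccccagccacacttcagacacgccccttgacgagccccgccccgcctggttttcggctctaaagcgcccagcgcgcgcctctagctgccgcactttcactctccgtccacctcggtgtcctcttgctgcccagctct
Cxcr4: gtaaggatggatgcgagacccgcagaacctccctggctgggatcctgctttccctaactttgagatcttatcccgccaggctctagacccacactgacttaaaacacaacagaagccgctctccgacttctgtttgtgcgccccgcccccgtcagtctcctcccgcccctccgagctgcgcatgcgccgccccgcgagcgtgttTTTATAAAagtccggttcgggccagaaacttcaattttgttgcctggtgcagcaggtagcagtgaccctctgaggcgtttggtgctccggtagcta
Ackr3: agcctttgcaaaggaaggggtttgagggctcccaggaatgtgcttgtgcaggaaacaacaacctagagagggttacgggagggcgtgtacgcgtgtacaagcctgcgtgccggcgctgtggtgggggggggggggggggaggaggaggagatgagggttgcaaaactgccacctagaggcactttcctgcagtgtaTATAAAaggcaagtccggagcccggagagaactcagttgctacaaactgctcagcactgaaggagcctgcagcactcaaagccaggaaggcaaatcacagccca
Ccl21: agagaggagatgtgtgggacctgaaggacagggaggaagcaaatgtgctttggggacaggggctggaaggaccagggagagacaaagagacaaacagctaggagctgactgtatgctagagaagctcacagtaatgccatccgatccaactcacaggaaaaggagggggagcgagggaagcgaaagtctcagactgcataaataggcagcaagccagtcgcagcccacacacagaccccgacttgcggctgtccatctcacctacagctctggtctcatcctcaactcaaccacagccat
Cxcl10: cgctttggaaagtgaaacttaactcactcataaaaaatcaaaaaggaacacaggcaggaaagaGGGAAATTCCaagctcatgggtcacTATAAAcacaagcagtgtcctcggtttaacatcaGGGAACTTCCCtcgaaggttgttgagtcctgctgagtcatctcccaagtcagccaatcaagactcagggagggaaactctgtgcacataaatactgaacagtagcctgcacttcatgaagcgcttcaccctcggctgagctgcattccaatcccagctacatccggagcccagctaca
Cxcl2: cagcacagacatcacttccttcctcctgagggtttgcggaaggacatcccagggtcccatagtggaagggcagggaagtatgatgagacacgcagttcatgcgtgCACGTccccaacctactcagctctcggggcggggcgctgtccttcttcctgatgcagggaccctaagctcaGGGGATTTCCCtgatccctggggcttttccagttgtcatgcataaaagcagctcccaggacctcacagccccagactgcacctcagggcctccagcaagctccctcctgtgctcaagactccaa

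Of the 45 genes, 35 had such a window. The kappa B consensus was found in 9 of these 35, 25.7%, against 7.51% of 33469 promoters of the same length. It was found in 3 of 3 neutrophil-attracting ligands (Cxcl1, Cxcl2 and Cxcl6), in 2 of 3 interferon-induced ligands (Cxcl10 and Cxcl11), in 3 of 8 inflammatory CC and XC ligands (Ccl7, Ccl9 and Ccl20), and in 1 of 9 signalling receptors (Ccr3). It was found in 0 of 9 homeostatic and stromal ligands and 0 of 3 atypical receptors. TATA box matches were present in 28.6% of the members and 14.2% of all promoters, AGGTCA in 28.6% and 16.2%, and ACGTG in 11.4% and 19.3%. These are letter matches in a short window, and binding was not measured.

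Cxcl12, which retains stem cells and steers vessel and nerve growth, was above background on all 6 arrays with each of its 3 probe sets. Its receptors Cxcr4, the signalling one, and Ackr3, which takes the ligand up, had changes of opposite sign, neither past the adjusted threshold. Cxcr4 was measured by 3 probe sets. The first Cxcr4 probe set read 501, 394 and 673 intensity units on deficient arrays 1, 2 and 3, against 972, 786 and 772 on adequate arrays 1, 2 and 3. All deficient arrays were below all adequate arrays, and deficient array 3 was the closest to them. Its log2 change was -0.72 ± 0.22 (SE), a fold of 0.609, with an unadjusted p of 0.00741 and an adjusted p of 0.344 in limma.

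The second, which the annotation derives from the same expressed sequence and which is no independent measure, read 360, 349 and 451 in the deficient group, against 662, 518 and 543 in the adequate group. Its log2 change was -0.57 ± 0.19 (SE). The third Cxcr4 probe set, from another sequence, read 257, 143 and 251, against 291, 300 and 316, and its log2 change was -0.53 ± 0.26 (SE), with an unadjusted p of 0.0647. The groups did not overlap for any of the 3 probe sets, and all changes pointed the same way. With deficient array 3 alone the log2 changes were -0.32, -0.34 and -0.27. Without it they were -0.92, -0.69 and -0.66, and limma's adjusted p was 0.00891 for the first, 0.0258 for the second and 0.106 for the third. In that fit 19.4% of all tested probe sets passed the adjusted threshold.

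Ackr3 read 1631, 1922 and 1785 on the deficient arrays, against 1247, 1537 and 1314 on the adequate arrays. Every deficient array was above every adequate array, and deficient array 3 was in the middle of its group. Its log2 change was 0.38 ± 0.15 (SE), a fold of 1.30, with an unadjusted p of 0.0313 and an adjusted p of 0.344 in limma. It was 0.39 with deficient array 3 alone and between 0.32 and 0.47 when any 1 array was left out. Without deficient array 3 it was 0.38, with an adjusted p of 0.0931 in limma.

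The ligand itself gave probe sets that disagreed in direction. Cxcl12 read 5895, 5521 and 3614 with its first probe set on the deficient arrays, against 4139, 4053 and 4930 on the adequate arrays. Deficient arrays 1 and 2 were above, and deficient array 3 below, every adequate array, so the groups overlapped. This gave a log2 change of 0.17 ± 0.20 (SE) with all arrays, 0.39 without deficient array 3, where the adjusted p was 0.0498, and -0.27 with deficient array 3 alone. With the second Cxcl12 probe set the signals were 3190, 3575 and 3201, against 3468, 4451 and 3515, a log2 change of -0.19 ± 0.16 (SE). With the third they were 213, 308 and 549, against 412, 248 and 652, a log2 change of -0.30 ± 0.39 (SE). For the second and the third the change was -0.24 and 0.44 with deficient array 3 alone and -0.16 and -0.66 without it. Without that array their adjusted p in limma was 0.424 and 0.213. For none of the 3 did the groups separate, and the 95% confidence intervals spanned -0.28 to 0.62, -0.54 to 0.16 and -1.16 to 0.57.

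**Figure D2:**
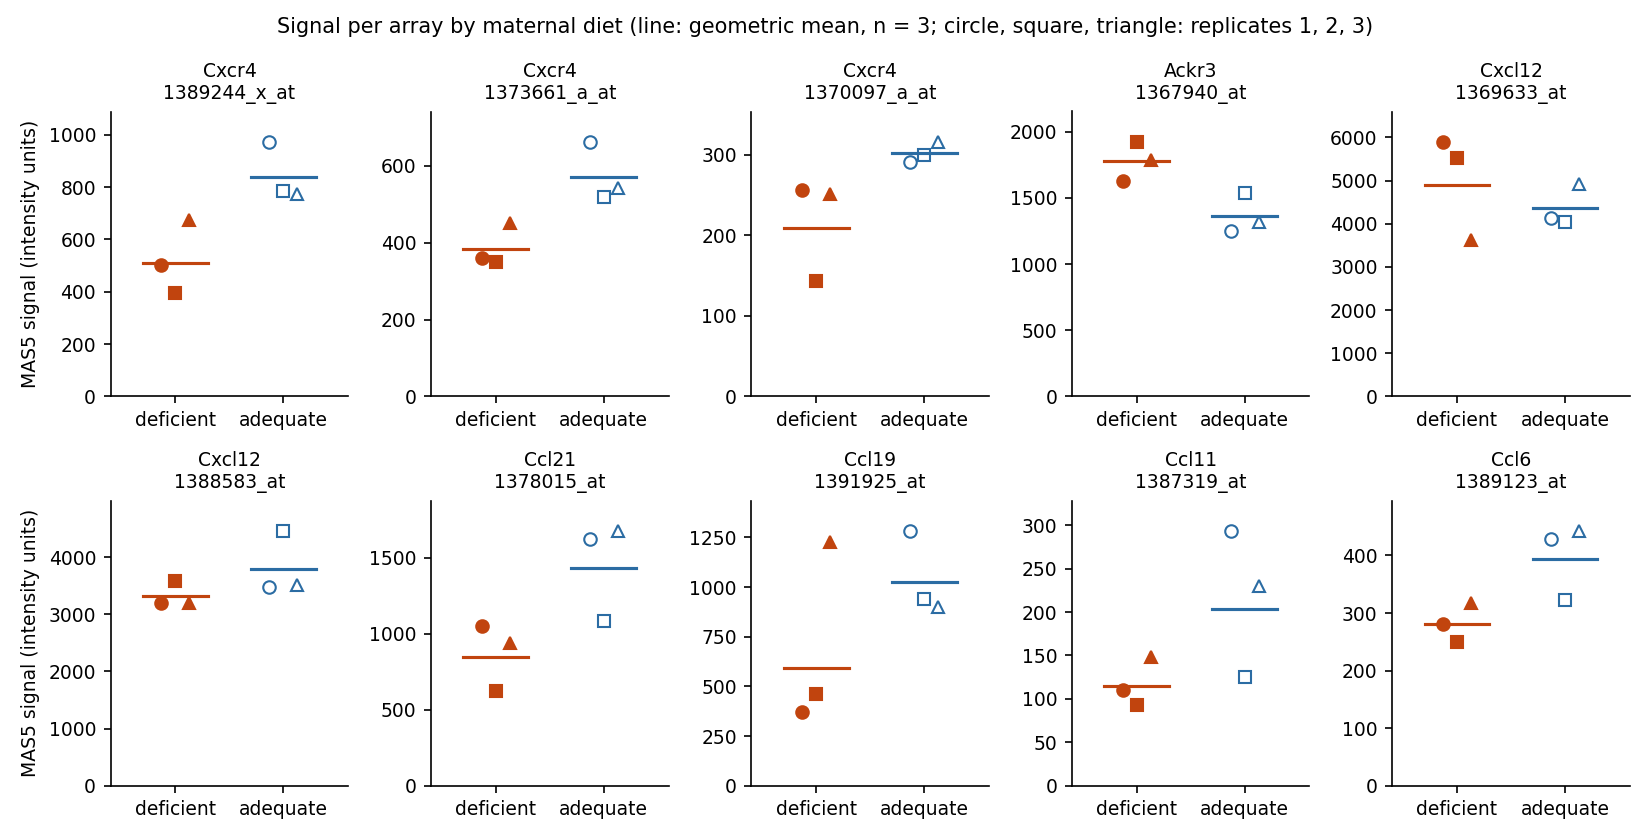
MAS5 signal on each array (vertical axis, intensity units from 0) by maternal diet for 10 probe sets, with the geometric mean of each group as a line. For the 3 Cxcr4 probe sets, Ccl21 and Ccl6 the deficient arrays lie below the adequate arrays, for Ackr3 they lie above them, and for Ccl19 deficient array 3, at 1225, lies among the adequate arrays.

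Ccl21 and Ccl19 both bind Ccr7, which was not analysed here, and draw T cells and dendritic cells into lymphatic vessels and lymph nodes. Ccl21 read 1051, 622 and 937 on the deficient arrays, against 1620, 1086 and 1674 on the adequate arrays. All deficient arrays were lower, although the gap between the highest deficient and the lowest adequate array was small. For Ccl21 the log2 change was -0.75 ± 0.24 (SE), a fold of 0.593, with an unadjusted p of 0.00915 and an adjusted p of 0.344 in limma. It was -0.61 with deficient array 3 alone and -0.83 without it, where the adjusted p was 0.0448.

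Ccl19 read 370, 461 and 1225 on the deficient arrays, against 1281, 942 and 898 on the adequate arrays. The low values were those of deficient arrays 1 and 2, and deficient array 3 was within the adequate range. The log2 change was -0.79 ± 0.37 (SE) with an unadjusted p of 0.0600, -1.31 without deficient array 3 (adjusted p 0.00280 in limma), and 0.25 with deficient array 3 alone. Ackr4, the atypical receptor that clears Ccl19 and Ccl21, read 701, 725 and 536, against 682, 635 and 684. Its log2 change was -0.04 ± 0.18 (SE), with a 95% confidence interval of -0.43 to 0.35.

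In the RefSeq gene table of GRCr8, Ccl27, Ccl19 and Ccl21 lie side by side on chromosome 5 with 1 other gene between each. Ccl27, a skin-homing ligand of Ccr10, read 152, 110 and 78.9 on the deficient arrays, against 153, 118 and 102 on the adequate arrays, a log2 change of -0.16 ± 0.30 (SE). Its groups overlapped. Ccr10 was above background on no array.

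Cxcl13, which draws B cells into follicles and milky spots, read 1347, 1758 and 1204 on the deficient arrays, against 1646, 1074 and 1356 on the adequate arrays. The groups overlapped, with a log2 change of 0.08 ± 0.20 (SE). Its receptor Cxcr5 read 163, 135 and 240, against 122, 214 and 129, with its first probe set, a log2 change of 0.22 ± 0.30 (SE). The other Cxcr5 probe set was above background on no array. Its signals were 48.5, 79.5 and 40.4, against 9.32, 17.8 and 4.85, so the groups did not overlap, and no fold is given below background.

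Of the remaining homeostatic ligands, Cxcl16, a membrane-bound ligand and scavenger receptor, read 319 to 441 in the deficient group and 370 to 456 in the adequate group, a log2 change of -0.15 ± 0.20 (SE). Cxcl14, expressed by epithelia and fibroblasts, read 216, 199 and 209, against 210, 158 and 389, with its first probe set, where adequate array 3 was the high one, a log2 change of -0.18 ± 0.31 (SE). Its other probe set was above background on no array. Cx3cl1, the membrane-anchored ligand also called fractalkine, read 23.6, 93.0 and 75.1 in the deficient group, against 92.2, 86.5 and 107 in the adequate group. It was above background on all arrays but deficient array 1 and was too dim to test, as was its receptor Cx3cr1, which was above background on 1 deficient and 2 adequate arrays. Ccl28, a ligand of mucosal surfaces, was above background on no array.

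**Figure D3:**
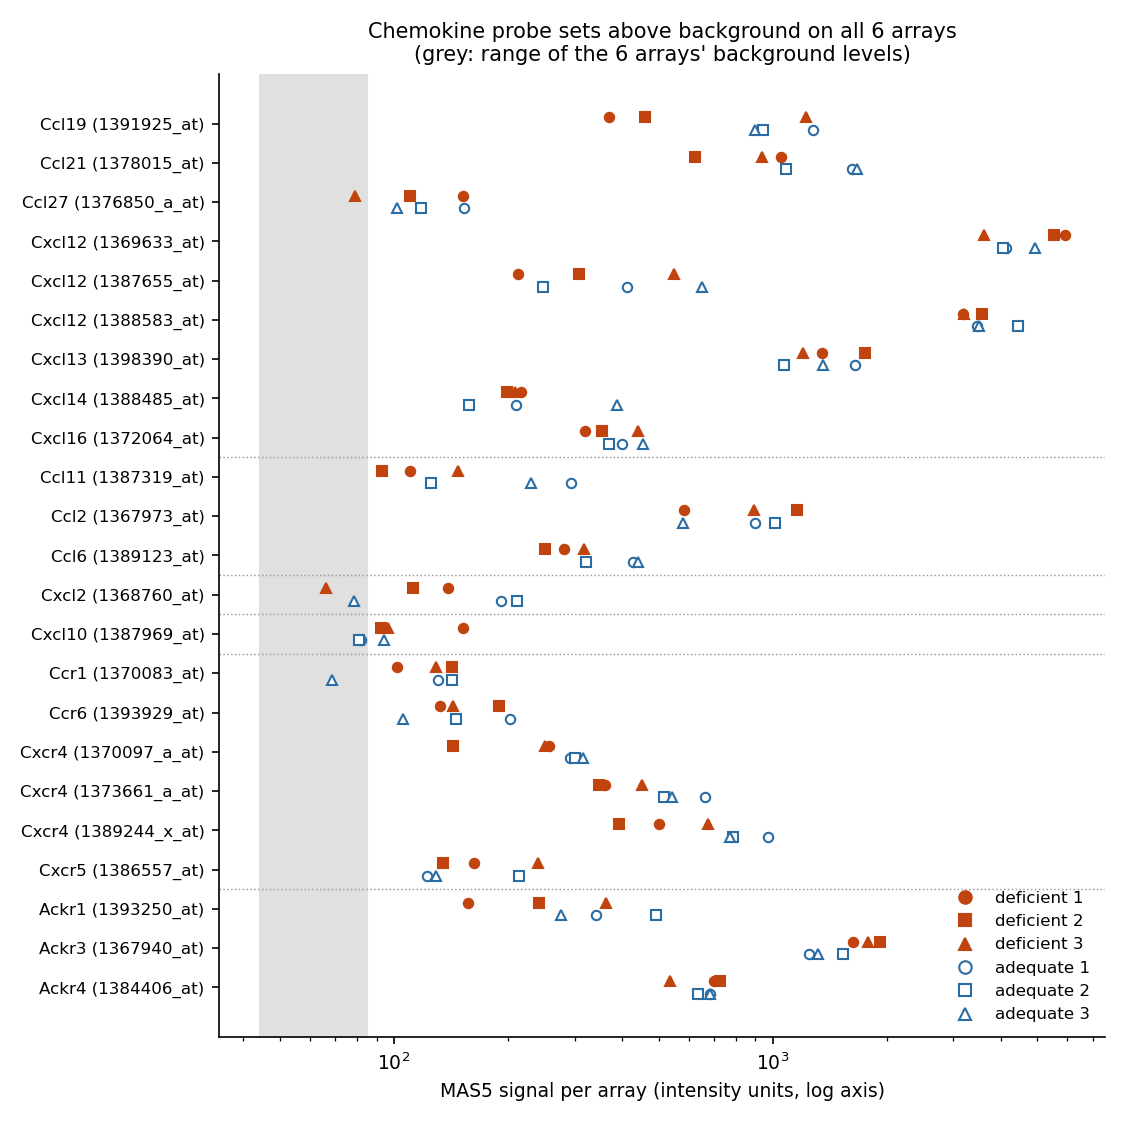
MAS5 signal per array (horizontal log axis, intensity units) of the 23 chemokine and receptor probe sets above background on all 6 arrays, with the range of the arrays' background levels, 44.2 to 85.1, in grey. Filled symbols are deficient and open symbols adequate arrays, and dotted lines separate homeostatic, inflammatory, neutrophil-attracting and interferon-induced ligands, signalling receptors and atypical receptors.

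The inflammatory CC and XC ligands were mostly dim. Of their 13 genes, 3 were above background on every array: Ccl2, Ccl6 and Ccl11. Ccl2, which calls monocytes through Ccr2, read 582, 1157 and 892 on the deficient arrays, against 900, 1013 and 581 on the adequate arrays. Its groups overlapped, with a log2 change of 0.06 ± 0.28 (SE). Ccl7, which shares the receptor and neighbours Ccl2 in the genome, read 61.2, 101 and 146, against 139, 187 and 41.6, a log2 change of -0.08 ± 0.53 (SE). Ccr2 was above background on no array.

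Ccl11, or eotaxin, draws eosinophils and is made by fibroblasts and smooth muscle, and it is the next gene beyond Ccl7. It read 110, 93.3 and 148 on the deficient arrays, against 293, 125 and 230 on the adequate arrays. Adequate array 2 was below deficient array 3, so the groups overlapped. The log2 change was -0.82 ± 0.33 (SE), a fold of 0.565, with an unadjusted p of 0.0322 and an adjusted p of 0.344 in limma. It was -0.46 with deficient array 3 alone and -1.01 without it, where the adjusted p was 0.0707. Ccl24, another eosinophil-attracting ligand of Ccr3, was too dim to test: it read 37.1, 36.8 and 52.9 on the deficient arrays, against 109, 71.4 and 89.7 on the adequate arrays. Its groups did not overlap, and it was above background on all adequate arrays and on 1 deficient array. Their shared receptor Ccr3 was above background on no array.

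Ccl6, a rodent ligand of Ccr1 made by myeloid cells, read 281, 250 and 317 on the deficient arrays, against 429, 322 and 442 on the adequate arrays. All deficient arrays were lower, with deficient array 3 just under adequate array 2. The log2 change was -0.48 ± 0.21 (SE), a fold of 0.715, with an unadjusted p of 0.0402 and an adjusted p of 0.344 in limma. It was -0.31 with deficient array 3 alone and -0.57 without it, where the adjusted p was 0.0813. Ccr1 read 102, 142 and 129, against 131, 142 and 68.6, a log2 change of 0.18 ± 0.32 (SE). Ccl5, released by T cells and platelets, read 129, 79.9 and 199, against 365, 88.1 and 145, where adequate array 1 was the high one, and its log2 change was -0.40 ± 0.49 (SE).

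Ccl3 and Ccl4, macrophage products, did not exceed 110 on any array. Ccl20 read 102, 61.4 and 106 in the deficient group, against 115, 99.4 and 46.6 in the adequate group. Its receptor Ccr6, found on B cells and some T cells, was above background on every array, at 132, 190 and 143, against 202, 146 and 106, a log2 change of 0.06 ± 0.29 (SE). Ccl17 and Ccl22, ligands of Ccr4, did not exceed 80.3 on any array, and Ccr4 itself was above background on none. Ccl9 and Xcl1 were above background on no array.

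Of the neutrophil-attracting ligands, Cxcl2 read 139, 112 and 66.0 on the deficient arrays, against 192, 211 and 78.3 on the adequate arrays. On both diets replicate 3 was the low one, and the log2 change was -0.54 ± 0.41 (SE). It was -1.16 with deficient array 3 alone, -0.24 without that array and -1.0 without adequate array 3. Cxcl1 read 67.1, 155 and 146, against 191, 142 and 131, a log2 change of -0.41 ± 0.34 (SE). Of the 5 probe sets of Cxcl3, 4 were above background on no array and the other on 1 adequate array. Cxcl6 and the neutrophil receptors Cxcr1 and Cxcr2 were above background on no array. Of the neutrophil marker list 4 of 7 genes were above background on every array and Mmp8 on none, and its sums were 2064 to 2807 intensity units in the deficient group and 2628 to 2780 in the adequate group.

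Of the interferon-induced ligands, Cxcl10 read 152, 92.2 and 96.6 on the deficient arrays, against 81.8, 80.8 and 94.4 on the adequate arrays. Deficient array 1 was the high one, and the log2 change was 0.37 ± 0.28 (SE), 0.18 with deficient array 3 alone and 0.47 without it. Cxcl11 and both Cxcl9 probe sets were also highest on deficient array 1, Cxcl11 at 139, and were not tested. Cxcr3, the chemokine receptor that binds these ligands on T cells, read 42.1, 39.6 and 62.6, against 105, 47.6 and 66.5. It was above background on 1 deficient and 2 adequate arrays.

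Ackr1, which carries chemokines across venules and also sits on red blood cells, read 157, 242 and 364 on the deficient arrays, against 342, 491 and 276 on the adequate arrays. Deficient array 3 was within the adequate range and the other deficient arrays below it. The log2 change was -0.58 ± 0.32 (SE) with an unadjusted p of 0.0985 in limma. It was 0.02 with deficient array 3 alone and -0.88 without it, where limma's adjusted p was 0.0574. Ackr2, the scavenger of inflammatory CC ligands, was above background on 1 deficient array with 1 probe set and on no array with the other.

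**Figure D4:**
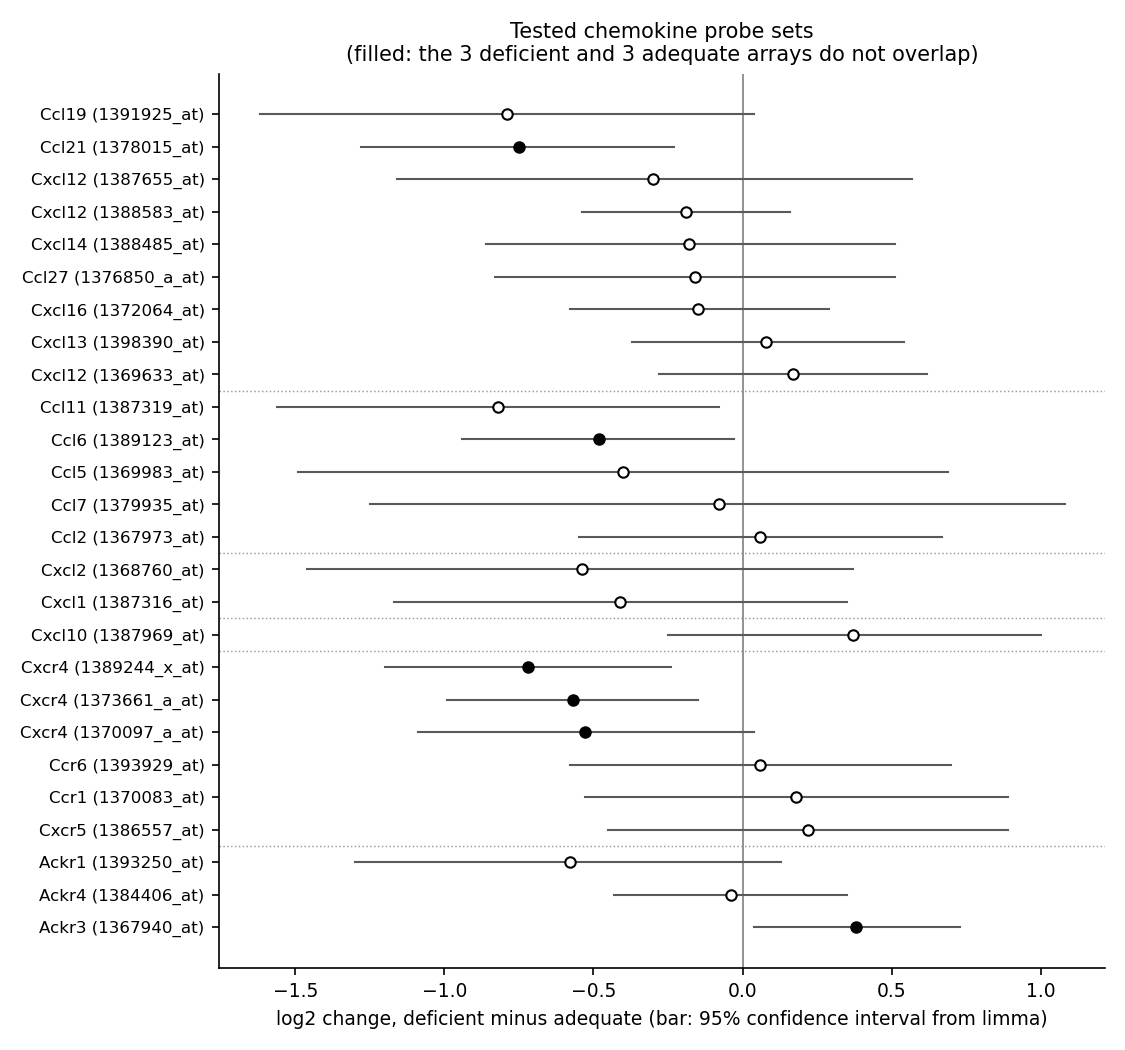
Log2 change, deficient minus adequate, of the 26 tested probe sets with 95% confidence intervals from limma, grouped by role. Filled points mark the 6 probe sets whose groups do not overlap, which are Cxcr4 (3 probe sets), Ccl21, Ccl6 and Ackr3.

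Markers of cells that make or respond to these chemokines differed between arrays as well. Over all tested probe sets, 55.3% were lower in the deficient group. At an unadjusted p under 0.05, 8.18% of them were lower and 6.03% higher. For 10.8%, all deficient arrays lay below all adequate arrays. The T and NK cell list, cells that carry Cxcr4 and Ccr7, had 7 of 9 tested genes lower in the deficient group, 2 of them at an unadjusted p under 0.05. On the log2 scale, relative to the adequate mean, the list averaged -0.67, -0.90 and -0.05 in the deficient samples and between -0.52 and 0.37 in the adequate samples. Its 12 genes summed to 1747 to 2820 intensity units in the deficient group and 1917 to 3652 in the adequate group, and each was above background on at least 1 array. The macrophage list had 12 of 14 lower, with sums of 13107 to 17922 in the deficient group against 16874 to 20427 in the adequate group. It averaged -0.54, -0.43 and -0.04 in the deficient samples, so that deficient array 3 lay inside the adequate range of -0.10 to 0.10. Mast cell markers had 7 of 7 lower, 3 at an unadjusted p under 0.05, with sums of 4570 to 7511 against 5716 to 8106, and Kit was above background on no array. Their mean was -0.94, -0.76 and -0.04, against -0.28 to 0.17, so here too deficient array 3 lay inside the adequate range. B cell markers Cd22 and Blnk did not overlap between the groups and were lower on all deficient arrays, with Cd79b and Ms4a1 above background on no array. The mean of Cd22 and Blnk was -0.56, -0.52 and -0.67, against -0.10 to 0.14, so deficient array 3 lay below the adequate range.

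Blood endothelium, a source of Ackr1 and Ackr3, had 6 of 9 markers lower and 3 of them at an unadjusted p under 0.05, which 8.18% of all tested probe sets reached in that direction. Its sums were 10528 to 11089 in the deficient group against 12045 to 12360 in the adequate group. The list averaged -0.15, -0.27 and -0.25 in the deficient samples, against -0.01 to 0.01, so here deficient array 3 lay below the adequate range. Tie1, a receptor of blood vessels, had a log2 change of -0.74 ± 0.20 (SE), the largest of the list. The 3 markers that were not lower were Flt1 at 0.25 ± 0.33 (SE), Pecam1 at 0.16 ± 0.22 and Tek at 0 ± 0.14. Kdr had -0.09 ± 0.15 (SE). Lymphatic endothelium, the known source of Ccl21 in vessels, had 1 of 4 tested markers lower and 3 higher, with a median of 0.10. Prox1, given here as its defining transcription factor, had a log2 change of 0.02 ± 0.15 (SE). The sums of the lymphatic list were 11219 to 15681 against 10265 to 11148, and Flt4 was above background on no array. Lyve1, the brightest of that list, read 9029, 11239 and 6554, against 5761, 6857 and 6781, so its groups overlapped. Fibroblast markers had 7 of 10 higher, mainly on deficient arrays 1 and 2, where the list averaged 0.47 and 0.31, with -0.12 for the other deficient array. Their sums were 93479 to 185109 in the deficient group and 88169 to 103687 in the adequate group. The brightest of the list, Col3a1, read 54863, 57459 and 21526 on the deficient arrays, against 21264, 24704 and 23867. The 3 lower fibroblast markers were Thy1, Dlk1 and Pi16, at -0.92 ± 0.26 (SE), -0.33 ± 0.16 and -0.08 ± 0.27. For Thy1, which had the smallest p of the list, all deficient arrays lay below all adequate arrays. Smooth muscle markers had 5 of 6 higher, 3 at an unadjusted p under 0.05, which 6.03% of all tested probe sets reached in that direction. The smooth muscle sums were 70811 to 110939 against 56290 to 68624. Intestinal epithelium markers were highest on adequate array 3, where the list averaged 1.61, with sums of 1028 to 1225 against 1179 to 5391. The part of these cell types in the chemokine values was not tested.

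Of 8 chemokine and related genes outside the naming rule with a probe set, 5 were tested, and 4 of these were lower in the deficient group, with a median log2 change of -0.32. Relative to the adequate mean, the list averaged -0.26, -0.29 and -0.03 in the deficient samples, the last inside the adequate range of -0.12 to 0.10. Pf4, a platelet and macrophage chemokine, read 913, 799 and 984 on the deficient arrays, against 1129, 1190 and 1136 on the adequate arrays, a log2 change of -0.36 ± 0.15 (SE). Mif, a cytokine that binds Cxcr4 and Cd74, had -0.32 ± 0.15 (SE), and its groups did not overlap. Cd74 had -0.60 ± 0.22 (SE). Rarres2 had -0.02 ± 0.14 (SE), and Pitpnm3 had 0.32 ± 0.21 (SE) with every deficient array above every adequate array. None passed the adjusted threshold.

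The machinery that carries the receptors' signal was described gene by gene from a list, with no test over the list. It held G proteins, arrestins, receptor kinases, regulators of G protein signalling and phosphoinositide 3-kinases. Of 32 tested genes, 25 were lower and 7 higher, with 4 and 1 at an unadjusted p under 0.05, 0 past the adjusted threshold and a median log2 change of -0.18. Over all tested probe sets, 55.3% were lower. At an unadjusted p under 0.05, 8.18% of them were lower and 6.03% higher. Gnb2, a G protein beta subunit, had -0.51 ± 0.20 (SE), Akt1, a kinase downstream of the receptors, -0.39 ± 0.15, and Plcb4, a phospholipase C, 0.50 ± 0.18. Averaged over the list, the deficient samples lay at -0.28, -0.22 and -0.02 and the adequate samples between -0.03 and 0.02.

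**Figure D5:**
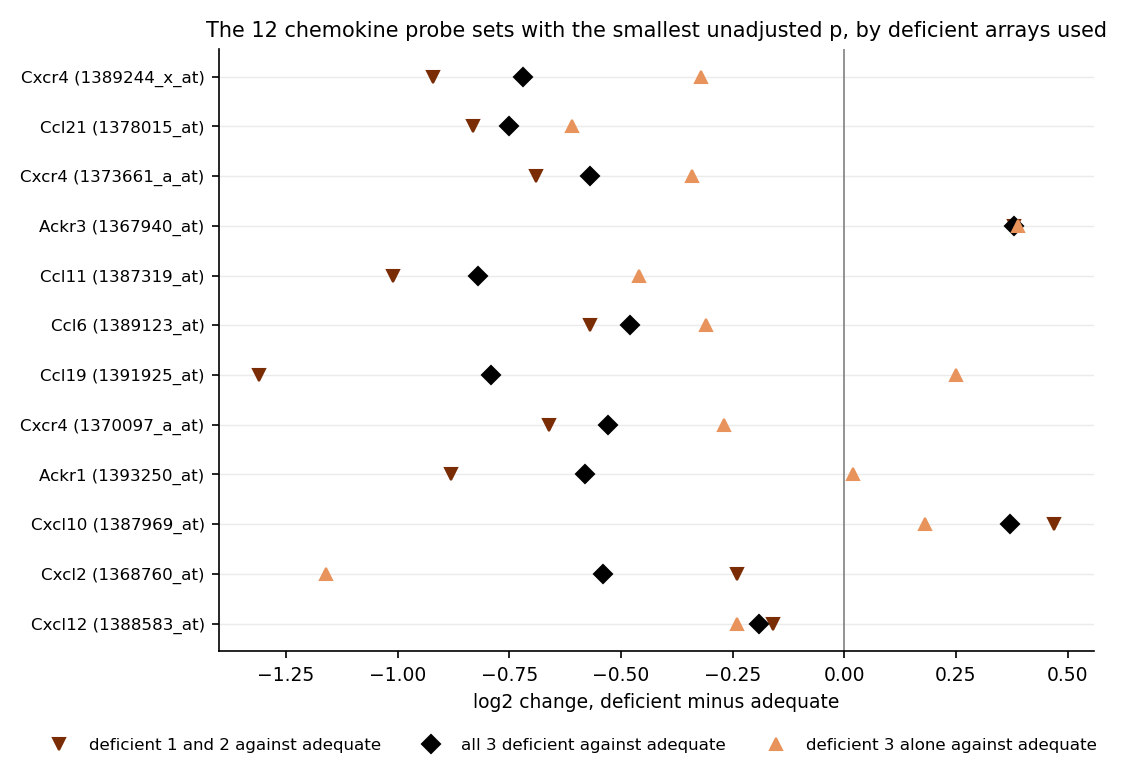
Log2 change, deficient minus adequate, of the 12 chemokine and receptor probe sets with the smallest unadjusted p, computed from deficient arrays 1 and 2, from all 3 deficient arrays and from deficient array 3 alone. Ackr3 stays above 0 in all of them, Ccl21 and Cxcr4 keep their direction, and Ccl19 and Ackr1 lie at or above 0 with deficient array 3 alone.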

How the data were processed

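The deposited values are linear intensity signals, 1 per probe set and array. MAS5 and Affymetrix Expression Console appear, with no version, in the submitters' processing notes. Every array had a trimmed mean signal of 500 (2% trimmed), so total RNA per array cannot be compared. The number of arrays limits the precision. Signals were log2 transformed without the 57 control probe sets.

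Probe sets under the 40th percentile of mean log2 signal (88.2 intensity units) were not tested. The others, 18625, were fitted as deficient minus adequate in limma 3.58.1 (R 4.3.3, lmFit, then eBayes with a mean-variance trend). P-values are two-sided and Benjamini-Hochberg adjusted over all tested probe sets (threshold 0.05). The fit was tested on simulated data with independent noise for each probe set and array. It recovered 18% of added log2 changes of 1 and 86% of changes of 2 past the adjusted threshold. Added changes under 1, the size of those of the members, were not simulated. RefSeq matched 45 of 45 member genes by Entrez identifier, with 0 symbols changed. For changes and per-array averages, lists used each gene's brightest tested probe set. Sums and background counts used its brightest probe set, tested or not, and so can cover more genes. P-values were given for the 12 members with the smallest unadjusted p where a statement rests on them, and other tested members got a log2 change. From lists, up to 3 genes with the smallest p were given. Exceptions were Prox1, endothelial and fibroblast markers shown for contrast or as the brightest, and the 5 tested genes outside the naming rule, all given. The members, lists and rules were chosen with earlier results of these data known. Alternatives changed normalization, filter, offset, variance model, weights, block, covariate and arrays. Figures used matplotlib 3.10.9.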

Additional observations from a re-analysis of the deposited data

How the results depend on the processing

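In the fit with all arrays, 0 probe sets passed the adjusted threshold and 6 members had an unadjusted p under 0.05. Array weights gave 3462 probe sets past the threshold (18.6%), 7 of them members (26.9% of those tested: Ackr3, Ccl11, Ccl19, Ccl21, Ccl6 and a pair of Cxcr4 probe sets), and leaving out 1 array gave between 0 and 3618, the higher count without deficient array 3, where 5 members passed (19.2% against 19.4% of all probe sets: Ccl19, Ccl21, Cxcl12 and a pair of Cxcr4 probe sets). Every other alternative gave 0. The members at an unadjusted p under 0.05 numbered 0 once the hybridisation controls entered as a covariate (against 4.23% of all probe sets), 1 from deficient array 3 by itself (3.57% against 6.60%), and between 2 and 10 when 1 array was left out: 2 without adequate array 1 (7.69%, against 5.82% of all probe sets), 3 when deficient array 2 was dropped (11.1% against 4.83%) and 10 when deficient array 3 was (38.5% against 35.3%). The members lower in the deficient group numbered 35 of 58 with no filter and 10 of 14 with the filter at the 60th percentile. The median over the members stayed between -0.29 and -0.11. With the 99th percentile of silent receptors, 14 probe sets were above background on every array.

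Signs reversed as follows. With deficient array 3 alone, the log2 change was 0.02 for Ackr1, 0.25 for Ccl19, and -0.27 and 0.44 for the first and the third Cxcl12 probe set. With the hybridisation covariate it was 0.20 for Ccl19, and -0.24 and 0.36 for the same Cxcl12 probe sets. Leaving out 1 array gave the third Cxcl12 probe set between -0.66 and 0.05. The causes were not tested. Whether replicate numbers pair the samples is not labelled. Deviations of same-numbered arrays correlated at 0.11, 0.15 and 0.01, which cannot decide whether they shared a litter or a processing batch. With the replicate number as a block, 0 probe sets passed, 6 members had an unadjusted p under 0.05 and the median was -0.18. Those members were 23.1% of the tested ones, against 17.4% of all tested probe sets in that fit and 14.2% without the block. Signals near background and the 40 silent receptors limit what can be said of dim members.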

Other observations

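Genes that act before and after the chemokines were described from lists. Over all tested probe sets, 55.3% were lower in the deficient group. At an unadjusted p under 0.05, 8.18% of them were lower and 6.03% higher. Of 34 tested genes of the migration machinery, 22 were lower and 12 higher in the deficient group, with 2 in each direction at an unadjusted p under 0.05 and 0 past the adjusted threshold. Rasgrp2, which activates Rap1 and integrins in platelets and leukocytes, read 369, 257 and 515 on the deficient arrays, against 762, 673 and 850 on the adequate arrays, a log2 change of -1.05 ± 0.25 (SE) with an adjusted p of 0.344 in limma. All deficient arrays were below all adequate arrays. Rac2, the Rac of blood cells, had -0.55 ± 0.25 (SE), and Rap1a 0.44 ± 0.19 (SE).

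Heparan sulfate holds chemokines on cell surfaces. In the list of its enzymes, core proteins and chemokine-cleaving proteases, 13 of 23 tested genes were lower and 10 higher, with a median of -0.06. At an unadjusted p under 0.05 there was 1 gene in each direction, and 0 passed the adjusted threshold. The lower one, the core protein Sdc3, had a log2 change of -0.47 ± 0.20 (SE), and its groups overlapped. The higher one, the heparan sulfate sulfotransferase Hs2st1, read 3359, 3002 and 2422 on the deficient arrays, against 2242, 2025 and 1698 on the adequate arrays. Its log2 change was 0.55 ± 0.18 (SE), without overlap. Among inducers of chemokine genes, 13 of 19 tested genes were lower, 0 at an unadjusted p under 0.05 in either direction, and Il1a, Il6 and Ifng were above background on no array. Those with the smallest p were Ltbr, Stat2 and the NF-kB subunit Rela, with log2 changes of -0.57 ± 0.26 (SE), -0.49 ± 0.23 and -0.35 ± 0.17.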
